A study of Caenorhabditis elegans with 12 samples.

Results

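The inducible heat shock genes described here are 9 gene identifiers of Caenorhabditis elegans, taken from 2949 genes with values in early embryos that lack LIN-65, MET-2 or both. They comprise 6 hsp-16 genes, hsp-70, F44E5.4 and F44E5.5. They were chosen by gene family and by being listed in the deposited tables of embryos without LIN-65, so their low values there are a description and carry no test. Heat shock transcription factor HSF-1 switches such genes on when proteins unfold, and in unstressed animals they are nearly silent. HSP-16 proteins are small chaperones of the alpha-crystallin type that hold unfolded proteins in solution, and Hsp70 chaperones refold them with ATP. MET-2 is the worm counterpart of the SETDB1 histone methyltransferase, which marks histone H3 at lysine 9 with 2 methyl groups in silent chromatin, and LIN-65 works with it as a cofactor; both are also known from work on the mitochondrial stress response.

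Total RNA had been sequenced after removal of ribosomal RNA from embryos of 1 to 300 cells, with 3 libraries for each of 4 strains. The strains were a double mutant with lin-65(delta) on chromosome I and met-2(n4256) on chromosome III, the single mutants lin-65(delta) and met-2(n4256), and the wild type N2 (Bristol). All were grown at 20 °C and were collected 60 to 65 h after synchronization depending on the strain, and the labels name no heat treatment. The mutations are present in the whole animal, and each library comes from many pooled embryos, in which fewer expressing cells and less RNA per cell cannot be told apart. The labels call the 3 libraries of a strain independent biological replicates.

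The values are log2 ratios for the 9 mutant libraries, and no header names their baseline. It was read as N2, because the lin-65 transcript stood at the lowest value of all genes in both strains without LIN-65 and near 0 in met-2. The N2 libraries have no column of their own, so the spread of N2 at these genes is not in the values. The tables hold no counts, and sequencing depth is unknown. Over all 2949 genes the library medians were 1.47 to 1.49 in the double mutant, 0.77 to 0.97 in lin-65 embryos and 1.06 to 1.53 in met-2, where replicate 1 was the highest. Of 12 body wall muscle genes 11 had values, with library medians of 2.0 to 2.12 in the double mutant, 0.92 to 1.27 in lin-65 embryos and 1.48 to 2.16 in met-2. Of 12 oocyte and eggshell genes 7 had values, with library medians of 0.92 to 0.94, 1.46 to 1.86 and 0.10 to 0.50 in the same order of strains. None of the 11 annotated first zygotic genes had a value, so the early embryo label could not be checked against them, and the part of embryo age in the results was not tested.

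The 9 genes lie at 4 places in the genome annotation, WBcel235. On chromosome V, hsp-16.1, hsp-16.48, hsp-16.49 and hsp-16.11 follow each other as an inverted repeat, in which hsp-16.1 and hsp-16.48 point away from each other and so do hsp-16.49 and hsp-16.11. A further pair on chromosome V, hsp-16.2 and hsp-16.41, has the same head-to-head layout. F44E5.4 and F44E5.5, both of the Hsp70 family, are head-to-head neighbours on chromosome II. On chromosome I, hsp-70 lies inside the span of uggt-2, on the opposite strand and overlapping none of its exons. Copies with near-identical sequence are hsp-16.1 with hsp-16.11, hsp-16.48 with hsp-16.49, and F44E5.4 with F44E5.5. The counting is not given in the sources used here, so the split of reads among copies is unknown and the value of any 1 copy is uncertain; counted by distinct gene, the 9 identifiers are 6.

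hsp-70 (WBGene00002026), the heat-inducible cytosolic Hsp70 chaperone, had the lowest value of the 9 in every library of the double mutant and of lin-65. Its log2 ratio to N2 was −4.96, −4.75 and −4.65 in the 3 double mutant libraries, −4.40, −4.56 and −5.10 in the lin-65 libraries and −0.88, −1.23 and −0.71 in the met-2 libraries. The libraries of both strains without LIN-65 overlapped each other and lay far below all met-2 libraries. On a linear scale the means correspond to 3.62% of the N2 level in the double mutant, 3.88% in lin-65 embryos and 52.1% in met-2. The N2 level itself and the counts are not in the values. Whether, for any of the 9, the ratios reflect a high N2 level or mutant values near the floor was not tested. Among all 2949 genes, lin-65 itself was the only one with a lower mean than hsp-70 in the double mutant and in lin-65.

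The host gene of hsp-70, uggt-2, which belongs to the family of glycoprotein glucosyltransferases, was low as well, and it was singled out after its values were seen. Its log2 ratio averaged −1.74 ± 0.03 in the double mutant, −1.20 ± 0.14 in lin-65 embryos and −0.60 ± 0.27 in met-2 (SD, n = 3 each, as for all values after ± below). The exons of both genes do not overlap in the annotation used, and it is not given whether reads were counted over exons or over whole gene spans, nor whether by strand. The next genes along the chromosome with values, cbl-1 and lin-41, were above N2 in every library of the 3 mutants, with means of 1.32 and 1.04 in the double mutant, 1.01 and 1.28 in lin-65 embryos and 0.90 and 0.45 in met-2.

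Of the small heat shock genes, hsp-16.2 (WBGene00002016), one of the most widely used heat stress reporters, stood at −3.71, −3.47 and −3.38 in the double mutant, −2.74, −2.89 and −3.54 in lin-65 embryos and −0.24, −0.64 and −0.24 in met-2. The first 2 lin-65 libraries were above every double mutant library and replicate 3 of lin-65 was among them. Its head-to-head partner hsp-16.41 (WBGene00002018) stood at −2.98, −3.03 and −2.88 in the double mutant, −2.19, −2.36 and −3.05 in lin-65 embryos and −0.28, −0.53 and −0.17 in met-2. The same library, replicate 3 of lin-65, again reached the double mutant level and was the lowest of all 9 for hsp-16.41.

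In the inverted repeat, hsp-16.1 (WBGene00002015) stood at −3.64, −3.49 and −3.29 in the double mutant, −2.78, −2.82 and −3.53 in lin-65 embryos and −0.36, −0.85 and −0.46 in met-2. Its partner hsp-16.48 (WBGene00002019) stood at −3.50, −3.29 and −3.17 in the double mutant, −2.53, −2.16 and −2.93 in lin-65 embryos and −0.62, −1.11 and −0.84 in met-2. Here all 3 double mutant libraries lay below all 3 lin-65 libraries, and hsp-16.49 (WBGene00002020) had the same order, averaging −3.20 ± 0.13 in the double mutant, −2.60 ± 0.39 in lin-65 embryos and −0.91 ± 0.25 in met-2. The copy hsp-16.11 (WBGene00002017) averaged −3.50 ± 0.10, −3.03 ± 0.44 and −0.59 ± 0.32 in the same strains and differed from hsp-16.1 by at most 0.125 in any library. For hsp-16.49 and hsp-16.48 the largest difference in a library was 0.202.

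F44E5.4 and F44E5.5 were the least lowered of the 9 by strain mean, though not in every lin-65 library. F44E5.4 (WBGene00009691) stood at −2.51, −2.54 and −2.47 in the double mutant, −2.09, −2.36 and −2.66 in lin-65 embryos and 0.17, −0.28 and 0.02 in met-2. The double mutant libraries lay within the range of the lin-65 libraries, and the met-2 libraries lay on both sides of the N2 baseline. F44E5.5 (WBGene00009692) differed from F44E5.4 by at most 0.0243 in any library, less than the SD of F44E5.4 in each of the 3 strains, so both identifiers carry nearly the same measurement.

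**Figure D1:**
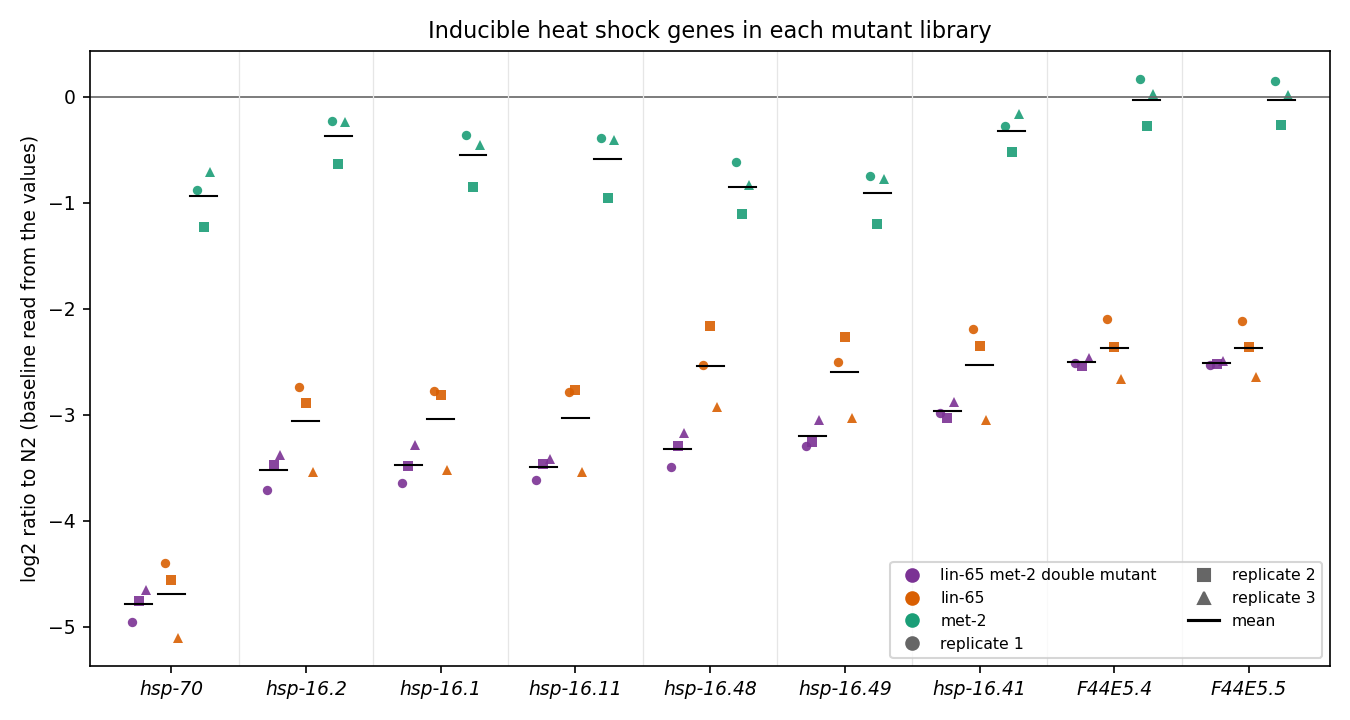
Log2 ratio to N2 (vertical axis) of the 9 genes in each library of the double mutant, lin-65 and met-2; marker shapes give the replicate and black lines the mean of 3 libraries. Every gene sits below −2 in the double mutant and in lin-65, with hsp-70 lowest at means of −4.79 and −4.69, while the met-2 means lie between −0.94 and −0.03.

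The order of the 9 genes was nearly the same in the double mutant and in lin-65. Both began with hsp-70, followed by hsp-16.2, hsp-16.1 and hsp-16.11, then by hsp-16.48 and hsp-16.49, by hsp-16.41 and by F44E5.4 and F44E5.5. The genes share each library, so neighbours in this order were compared within libraries. The difference of hsp-70 from the next gene, hsp-16.2, was −1.24, −1.28 and −1.27 in the double mutant and −1.66, −1.67 and −1.56 in lin-65. In the double mutant, hsp-16.2, hsp-16.11 and hsp-16.1 changed places from library to library, and from hsp-16.1 through hsp-16.48, hsp-16.49 and hsp-16.41 to F44E5.5 each gene was below the next in 3 of 3 libraries. In lin-65 the only neighbours after hsp-70 with 1 sign in all 3 libraries were hsp-16.11 and hsp-16.49, at −0.28, −0.50 and −0.51. In met-2 the order differed, with hsp-70 at −0.94 ± 0.26 lowest, hsp-16.49 and hsp-16.48 next, none of these neighbours with 1 sign in all 3 libraries, and hsp-16.2 at −0.37 ± 0.23 and hsp-16.41 at −0.32 ± 0.19 closer to N2.

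All 9 genes had a mean of −1 or less in the double mutant, where 4.44% of the 2949 genes did, and in lin-65, where 4.14% did. None of the 9 reached −1 in met-2, where 0.712% of all genes did, although 23 of their 27 library values were below 0. The members had been chosen on these values, so nothing follows from the counts. Their median was −3.32 in the double mutant, −2.60 in lin-65 embryos and −0.56 in met-2, against medians over all listed genes of 1.47, 0.83 and 1.20. With each library set to a median of 0 over all listed genes, the medians of the 9 became −4.80, −3.44 and −1.78, and all 9 were at −1 or less in met-2 as well. Every mean listed in the authors' tables was at least 1 log2 unit from 0, and none of the 9 was close to that limit in the strains without LIN-65, since the member nearest to it in lin-65 was F44E5.4 at −2.37. The cochaperone gene dnj-13, at −1.16 in lin-65, was the nearest heat shock gene left out by the choice of members.

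In both strains without LIN-65 the 9 genes had lower values than in met-2. Set against met-2, the mean log2 ratio of the double mutant differed by −3.85 for hsp-70 to −2.29 for hsp-16.49, and that of lin-65 by −3.75 for hsp-70 to −1.68 for hsp-16.48. For all 9 genes the 3 libraries of the double mutant and the 3 of lin-65 lay below the 3 of met-2; over all listed genes this held for 8.07% in the double mutant and 47.1% in lin-65. These differences use the low values by which the genes were chosen and were not tested. The sum of the lin-65 and met-2 means differed from the double mutant mean by at most 0.31 for the 8 genes other than hsp-70. For hsp-70 the double mutant mean of −4.79 lay above the sum of −5.63. The error of N2 enters such sums, so they too were left without a test.

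The choice of genes used low values in both strains without LIN-65, though not the difference between these strains, and earlier results were known. A test of that difference is therefore not fully independent of the choice. The difference asks whether loss of MET-2 changed the genes further once LIN-65 was absent. It was tested as the double mutant minus lin-65 with limma over all 2949 genes, with all 9 libraries in 1 fit and Benjamini-Hochberg adjustment. A gene passed below an adjusted p of 0.05. The adjustment runs over listed genes only, most of which passed, so it was mild and is not an adjustment over the genome. hsp-16.48 and its copy hsp-16.49 were lower in the double mutant. For hsp-16.48 the difference was −0.78 (SE 0.21, limma adjusted p = 0.00316) and for hsp-16.49 it was −0.60 (SE 0.21, limma adjusted p = 0.0147), both with 3 of 3 double mutant libraries below 3 of 3 lin-65 libraries, an order found in 5.90% of all genes. These 2 of the 9 compare with 4.61% of all genes that passed as lower, and being near-identical copies they amount to 1 gene; averaged into 1 value, that gene was the only one to pass. Over all listed genes 74.3% passed as higher, and the median difference was 0.70.

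The remaining 4 hsp-16 genes had differences of −0.47 to −0.43, and none of them passed. For hsp-16.2 the difference was −0.47 with a 95% interval of −0.91 to −0.02 (limma adjusted p = 0.0527), and for hsp-16.1 it was −0.43 with an interval of −0.88 to 0.02 (limma adjusted p = 0.0725). The hsp-70 difference was −0.10 with an interval of −0.53 to 0.34 (limma adjusted p = 0.659), and that of F44E5.4 was −0.14 with an interval of −0.53 to 0.26 (limma adjusted p = 0.504). The intervals of hsp-70 and F44E5.4 both end below the median difference of 0.70 over all listed genes, and both reach down to −0.53. That median is not a neutral reference, as 85.0% of the genes were listed with a positive mean in the double mutant and 29.0% in lin-65.

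The number that passed depended on the scaling. Setting each library to a median of 0 takes 0.64 from the difference of every gene alike, and that median is over genes listed for a change, 85.0% of them listed with a positive mean in the double mutant. On that scale, relative to the other listed genes, the 9 differences ran from −1.42 for hsp-16.48 to −0.74 for hsp-70. All 9 passed as lower (limma adjusted p from 1.46e-04 to 0.0138), beside 486 of 2949 genes that passed as lower. In either direction 38.1% of all genes passed. Genes that were not listed could not enter the median, and which scale is nearer to the embryos was not tested. The count on the values as deposited also changed with the libraries used. It was 3 without replicate 1 of met-2 and 4 without replicate 2, beside 164 and 136 of all genes that passed as lower. The largest change came with replicate 3 of lin-65. Without it 6 of the 9 passed, with hsp-16.2 at −0.71 (limma adjusted p = 0.00929), beside 108 of 2949 genes that passed as lower. These were the 6 hsp-16 genes, among which hsp-16.1 with hsp-16.11 and hsp-16.48 with hsp-16.49 are copies. Without replicate 1 or replicate 2 of lin-65 only hsp-16.48 passed, beside 92 and 111 of all genes.

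**Figure D2:**
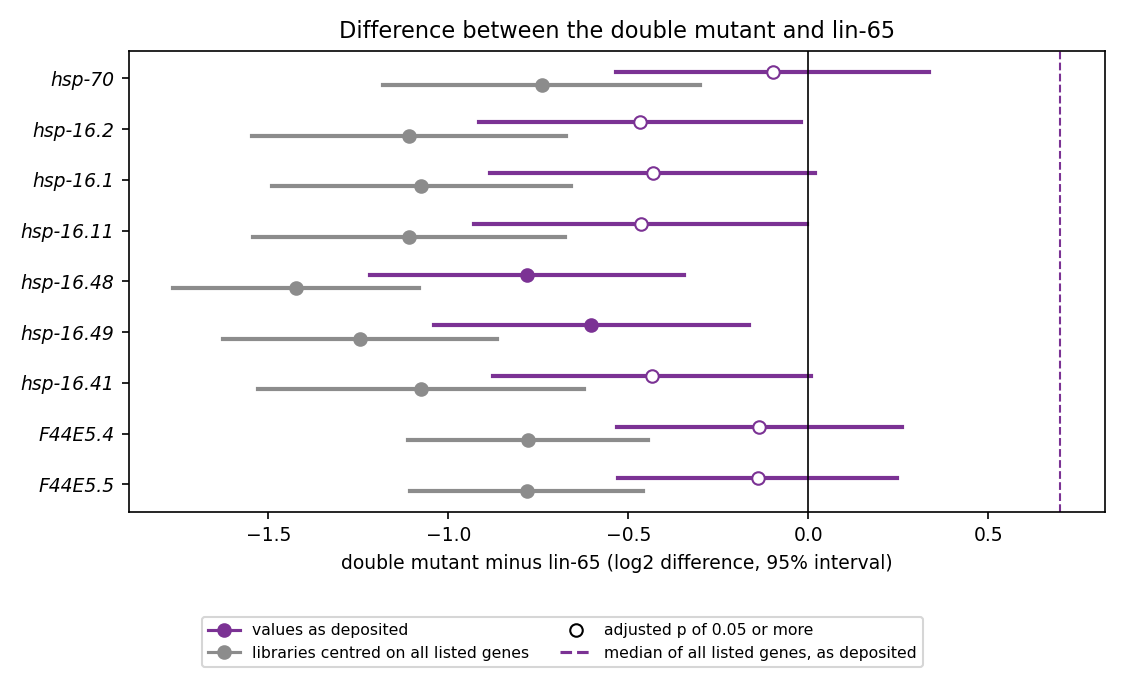
Double mutant minus lin-65 in log2 units (horizontal axis) for each gene, with 95% limma intervals, on the values as deposited and with libraries centred on all listed genes; filled points passed at an adjusted p of 0.05. As deposited, hsp-16.48 at −0.78 and hsp-16.49 at −0.60 passed while the median of all listed genes was 0.70, and centred, which takes 0.64 from every gene alike, all 9 passed.

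The 9 genes moved together from library to library within a strain. Replicate 3 of lin-65 had the lowest value of its strain for 9 of 9 genes, by 0.27 to 0.52 below the strain mean, while the median over all listed genes lay 0.06 below it there. Replicate 2 of met-2 was the lowest for 9 of 9, by 0.20 to 0.37 below the strain mean, where the median over all listed genes lay 0.16 below it. In the double mutant, replicate 3 was the highest for 9 of 9, by 0.02 to 0.18, and replicate 1 the lowest for 7. The library median over the 9 genes was −3.50, −3.29 and −3.17 in the double mutant, −2.53, −2.36 and −3.05 in lin-65 embryos and −0.36, −0.85 and −0.41 in met-2.

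The libraries of lin-65 thus differed more at these genes than those of the double mutant did. The median SD of the 9 genes was 0.131 in the double mutant, 0.394 in lin-65 embryos and 0.246 in met-2, beside 0.117, 0.183 and 0.307 over all listed genes. Replicate 3 of lin-65 also had the lowest median of the oocyte and eggshell genes in its strain, at 1.46 against 1.86 and 1.64 in replicates 1 and 2, and its part in the low heat shock values was not tested. Since the 9 share each library, and some share reads, this joint movement is 1 observation per library rather than 9.

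**Figure D3:**
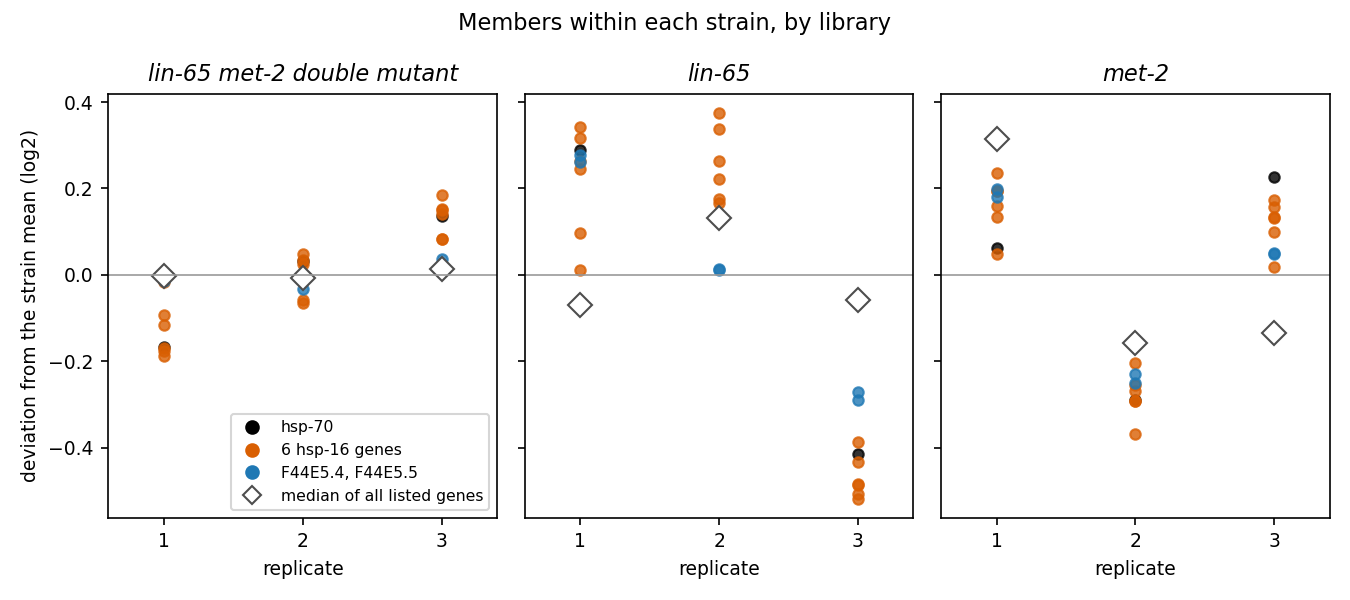
Deviation of each gene from its strain mean in log2 units (vertical axis) by replicate, for the double mutant, lin-65 and met-2; circles are the 9 genes and diamonds the median over all listed genes. All 9 genes lie 0.27 to 0.52 below the mean in replicate 3 of lin-65 and 0.20 to 0.37 below it in replicate 2 of met-2.

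Head-to-head hsp-16 neighbours were not lowered to the same degree in the strains without LIN-65, and the imbalance differed between strains. F44E5.4 and F44E5.5, also head-to-head but near-identical copies, differed by at most 0.0243 in any library and are left out here. The difference hsp-16.1 minus hsp-16.48 within a library is free of library scaling. It was −0.15, −0.19 and −0.12 in the double mutant, −0.25, −0.65 and −0.60 in lin-65 embryos and 0.26, 0.26 and 0.38 in met-2. The other arm of the inverted repeat gave hsp-16.11 minus hsp-16.49 at −0.29 ± 0.08 in the double mutant, −0.43 ± 0.13 in lin-65 embryos and 0.32 ± 0.07 in met-2. In both pairs the partner with the lower ratio to N2 was hsp-16.1 or hsp-16.11 in every library without LIN-65, and hsp-16.48 or hsp-16.49 in every met-2 library. The arms are near-identical copies with an unknown split of reads, so they are not separate measurements. For hsp-16.2 minus hsp-16.41 the means were −0.56 ± 0.15 in the double mutant, −0.52 ± 0.03 in lin-65 embryos and −0.05 ± 0.08 in met-2, so this pair was nearly balanced without MET-2 alone. All these values share the N2 baseline of each gene, and they were not tested.

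**Figure D4:**
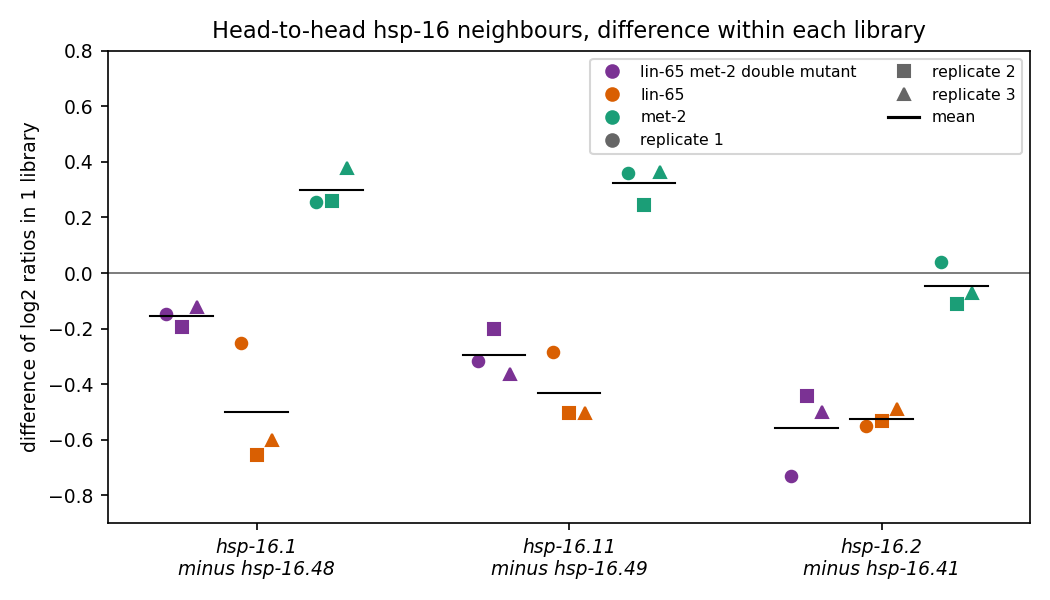
Difference of log2 ratios between head-to-head hsp-16 neighbours within 1 library (vertical axis) for the double mutant, lin-65 and met-2; marker shapes give the replicate and black lines the mean. The pairs hsp-16.1 minus hsp-16.48 and hsp-16.11 minus hsp-16.49 lie below 0 in all 6 libraries without LIN-65 and above 0 in the 3 met-2 libraries. These pairs are near-identical copies of each other and not separate measurements.

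The listed genes around the hsp-16 and F44E5 clusters were not low, but few flanking genes had values. Of the 10 protein-coding genes that flank each cluster, 5 on each side, 1 had values beside the inverted repeat, 1 beside hsp-16.2 and hsp-16.41 and 1 beside F44E5.4 and F44E5.5. C25E10.12, next to the inverted repeat, averaged 1.46 ± 0.03 in the double mutant, 0.93 ± 0.22 in lin-65 embryos and 1.22 ± 0.36 in met-2. F36H9.5, near hsp-16.2, averaged 2.0 ± 0.13, 1.24 ± 0.34 and 1.75 ± 0.13, and ctsa-1.2, near F44E5.4, averaged 1.57 ± 0.08, 0.54 ± 0.22 and 1.14 ± 0.38 in the same strains. All 3 were above N2 in every library. Of all genes, 85.0%, 29.0% and 65.2% were listed with a positive mean in the same strains, so 3 such genes say little. Around hsp-70, the host gene uggt-2 was below N2 in every library, and cbl-1 and lin-41 were above it. Flanking genes without values are not analysed here.

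Other heat shock genes with values were mostly above N2, as most listed genes were. Of 29 annotated chaperone and heat shock genes outside the 9, 8 had values. In the double mutant 6 were listed with a positive mean and 1 with a negative one, in lin-65 5 and 1, and in met-2 6 and 0. Among all 2949 genes, 85.0%, 29.0% and 65.2% were listed with a positive mean in these strains and 4.41%, 4.04% and 0.644% with a negative one, so counts among 8 genes say little about the list. The gene below N2 was dnj-13, which encodes an Hsp40 cochaperone that stimulates Hsp70 proteins, at −1.18 ± 0.07 in the double mutant, −1.16 ± 0.03 in lin-65 embryos and −0.14 ± 0.09 in met-2. Its difference of strains had the shape seen for hsp-70 at a smaller size.

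The small heat shock genes hsp-43 and hsp-12.2 had the highest double mutant means of that list, with 3.04 ± 0.06 and 2.42 ± 0.07 in the double mutant, 1.95 ± 0.32 and 1.32 ± 0.22 in lin-65 embryos and 2.45 ± 0.29 and 1.88 ± 0.37 in met-2. Small heat shock genes were therefore on both sides of N2 in strains without LIN-65. sip-1, a small heat shock gene known for expression in embryos, averaged 0.84 ± 0.07 in the double mutant, 1.38 ± 0.04 in lin-65 embryos and 0.11 ± 0.24 in met-2. It was listed in lin-65 alone. The constitutive chaperone hsp-1, the mitochondrial chaperones hsp-6 and hsp-60 and the endoplasmic reticulum chaperones hsp-3 and hsp-4 had no values in any table, so no level can be given for them.

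**Figure D5:**
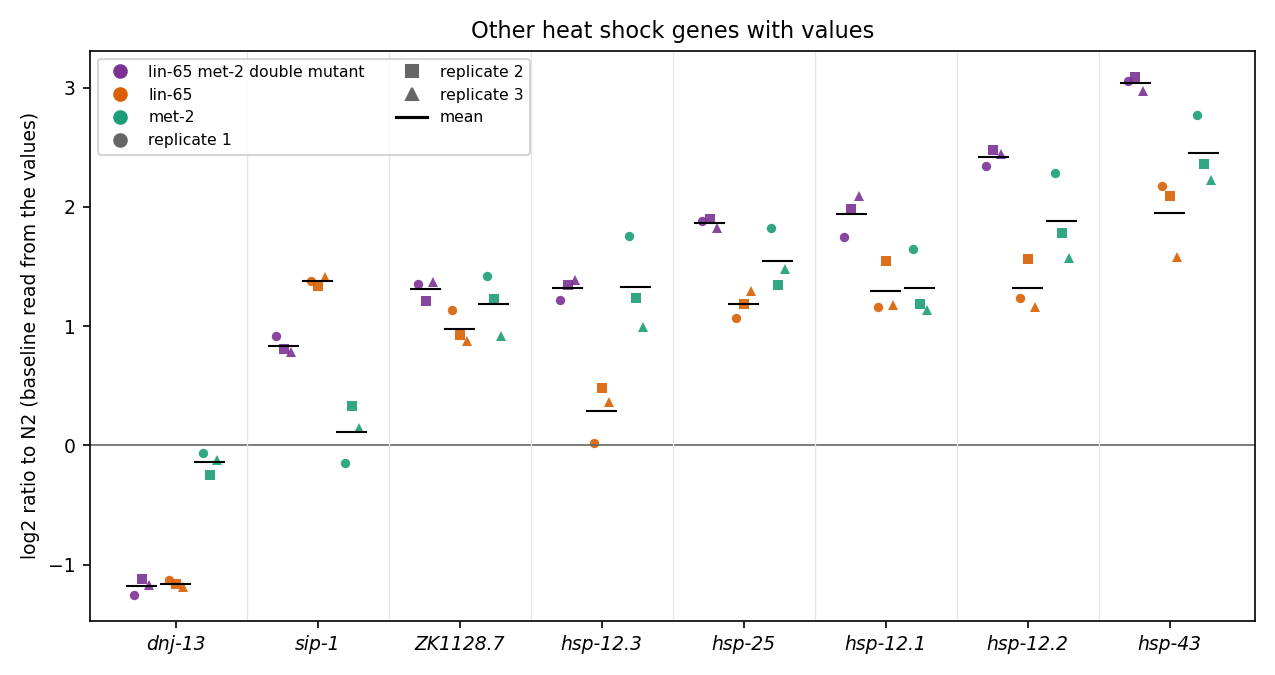
Log2 ratio to N2 (vertical axis) of the 8 other heat shock genes with values in each library of the double mutant, lin-65 and met-2; marker shapes give the replicate and black lines the mean. Only dnj-13 lies below N2 in the double mutant and lin-65, at means of −1.18 and −1.16, and hsp-43 is the highest at 3.04 in the double mutant.

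Of 9 annotated regulators of the heat shock response 2 had values, and neither HSF-1 itself (hsf-1) nor its binding partners ddl-1 and hsb-1 did. The FOXO factor daf-16 averaged 1.13 ± 0.05 in the double mutant, 0.69 ± 0.10 in lin-65 embryos and 0.91 ± 0.05 in met-2, and the linker histone gene hil-1 averaged 1.08 ± 0.26, 0.77 ± 0.29 and 0.52 ± 0.51. Both were listed in the double mutant alone, the table that lists 85.0% of all genes with a positive mean.

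Reporters of other stress pathways were on both sides of N2. Of 25 annotated genes 7 had values under 8 identifiers, of which 6 were listed with a positive mean in the double mutant, none in lin-65 embryos and 3 in met-2, and 2 with a negative mean in lin-65. Over all genes the shares listed with a positive mean were 85.0%, 29.0% and 65.2%, and the share with a negative mean in lin-65 was 4.04%. The antimicrobial peptide gene nlp-29 averaged 2.22 ± 0.09 in the double mutant, −0.21 ± 0.14 in lin-65 embryos and 1.80 ± 0.44 in met-2. The osmotic stress enzyme gene gpdh-1 averaged 1.23 ± 0.07, 0.16 ± 0.10 and 1.33 ± 0.10 in the same strains. The lowest were both identifiers annotated as numr-1, a gene induced by heavy metals, which like the 9 genes were below N2 in every library without LIN-65. One averaged −0.84 ± 0.24 in the double mutant and −1.96 ± 0.82 in lin-65, and in met-2 its libraries stood at 1.09, −1.31 and −1.58. The other averaged −0.56 ± 0.14 in the double mutant and −1.56 ± 0.17 in lin-65, and in met-2 its libraries stood at 1.39, −1.56 and −1.27, again with replicate 1 apart. For numr-1 lin-65 was the lowest strain by mean, unlike for the hsp-16 genes.

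The genes most like the 9 over the 9 libraries were ranked by Pearson's r with the mean of the 9, which here reflects mainly the 3 strain means and shares the N2 baseline. The first 5 were WBGene00012618 (r = 0.991), R107.5 (0.990), ZC239.6 (0.986), dnj-13 (0.986) and M05D6.3 (0.982). The 9 genes themselves had r of 0.973 for hsp-16.48 to 0.999 for hsp-16.1 with the mean of the other 8. The like genes were lowered less, with R107.5 at −1.53 ± 0.08 in the double mutant, −1.36 ± 0.01 in lin-65 embryos and −0.24 ± 0.11 in met-2. WBGene00012618, which has no symbol in the name table used, averaged −2.42 ± 0.07, −2.16 ± 0.08 and 0.58 ± 0.32.

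By distance over the 9 libraries rather than by shape, the nearest genes were M05D6.3, rnh-1.3, acs-15, F22E5.13 and Y38H6C.8. M05D6.3 averaged −2.20 ± 0.06 in the double mutant, −2.25 ± 0.17 in lin-65 embryos and −0.24 ± 0.18 in met-2, and it was the only gene in both groups of 5. acs-15, annotated by name among the acyl-CoA synthetases, averaged −2.19 ± 0.22, −2.23 ± 0.34 and −0.87 ± 0.23, and rnh-1.3, of the ribonuclease H family, −2.73 ± 0.19, −2.04 ± 0.10 and −1.28 ± 0.13. Y38H6C.8 averaged −2.22 ± 0.37, −2.11 ± 0.36 and 0.16 ± 0.06, and F22E5.13 −2.33 ± 0.47, −2.08 ± 0.17 and −0.30 ± 0.08. In lin-65 the 9 heat shock identifiers held ranks 2 to 10 from the lowest of all 2949 genes, directly before M05D6.3 and acs-15. In the double mutant they held ranks 2 to 8, 11 and 12, with met-2 at −2.76 and rnh-1.3 between hsp-16.41 and the F44E5 genes.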

How the data were processed

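The authors deposited 3 tables, 1 per mutant, of log2 values per library for selected genes; edgeR and the build ce10 are named per the submitters' processing notes. Aligner, counting, strand, scaling, annotation and selection rule: not given in the sources used here. A gene in several tables had the same values in each (largest difference 0), and the tables were joined to 2949 genes in 9 libraries. The members and gene lists were chosen with earlier results of these data known. Chromosome, strand and neighbours came from the Ensembl 115 annotation of WBcel235, hsp-16.11 and hsp-16.49 were named from RefSeq entries of identical span (Ensembl gives both copies of a pair 1 symbol), and 121 genes had no symbol; no coordinate was converted or printed.

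Differences between the double mutant and lin-65 were tested by limma (version 3.58.1, R 4.3.3) on log2 values for all 2949 genes, without covariates, at an adjusted p of 0.05. The fit was also run on simulated data with independent noise and most genes unchanged, unlike these data, and nothing is drawn from that run. Values against N2 and against met-2 are described without tests. Named were the 9 members, the 2 highest and 2 lowest of each list by double mutant mean (lists of 5 or fewer in full), the 5 genes most like the members by each measure, and flanking genes. Alternatives were centred libraries, the 6 libraries without LIN-65 alone, array weights, a replicate block, fewer genes, averaged copies and each library left out.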

Additional observations from a re-analysis of the deposited data

Results flagged for a closer look

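Within the 9 genes, hsp-16.48 and hsp-16.49 differed between the double mutant and lin-65 by limma's test, at −0.78 and −0.60. In the other named genes the same test (limma, all adjusted p-values below 0.05) gave a lower value in the double mutant for rnh-1.3 by −0.69, for sip-1 by −0.54 and for uggt-2 by −0.53. It gave a higher value for nlp-29 by 2.43, for 1 numr-1 identifier (WBGene00017270) by 1.12, for hsp-12.2 by 1.10, for hsp-43 by 1.09, for gpdh-1 by 1.06, for ctsa-1.2 by 1.04, for F36H9.5 by 0.76, for C25E10.12 by 0.53 and for daf-16 by 0.44. Of these genes, rnh-1.3 was named for its nearness to the 9 over the same libraries, and uggt-2 after its values were seen. Genes from the longer lists were named by their double mutant mean. Such calls are not independent of the naming. Not all of these calls held under other settings. Over all listed genes the median difference was 0.70.

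Some values lay on opposite sides of the N2 baseline in all libraries of a pair of strains, a difference that was not tested. For WBGene00012618 the double mutant differed from met-2 by −3.0 and lin-65 by −2.75, for Y38H6C.8 by −2.39 and −2.27, and for ZC239.6 by −1.38 and −1.12. For nlp-29 the double mutant differed from lin-65 by 2.43, and lin-65 from met-2 by −2.01. The within-library difference hsp-16.1 minus hsp-16.48 had opposite signs too, with the double mutant −0.45 and lin-65 −0.80 from met-2. For their near-identical copies, hsp-16.11 minus hsp-16.49, these were −0.62 and −0.75.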

How the results depend on the processing

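The number of the 9 genes that passed between the double mutant and lin-65 was 2, and it was 9 with libraries centred, 4 with only the lin-65 and double mutant libraries, 1 with copies averaged and 1 to 6 with each library left out. Array weights, a replicate block and fewer genes gave 2 each. Over all genes in the fit, 136 passed as lower in the main setting and 486 with libraries centred. That number was 161 with only the lin-65 and double mutant libraries, 135 with copies averaged and 92 to 164 with each library left out. Array weights, a replicate block and fewer genes gave 179, 109 and 134. hsp-16.48 passed under every setting, and hsp-16.49 lost its call without replicate 1 or 2 of lin-65 (limma adjusted p = 0.0510 and 0.0814). With each library left out the hsp-70 difference ran from −0.31 to 0.046 and that of F44E5.4 from −0.28 to 0.0026, the highest values without replicate 1 of lin-65 and on the other side of 0. Among other named genes, daf-16 turned to −0.20 and C25E10.12 to −0.11 with libraries centred, and each lost its call in 4 of the fits that left out 1 library. Centring also ended the calls of numr-1 (WBGene00017270, 0.48, limma adjusted p = 0.507), F36H9.5 (0.11, limma adjusted p = 0.660) and gpdh-1 (0.42, limma adjusted p = 0.0538). The numr-1 call was lost in 5 of the fits without 1 library, with limma adjusted p up to 0.147, and the uggt-2 call without replicate 2 of lin-65 (limma adjusted p = 0.0507). Those of rnh-1.3, sip-1, nlp-29, hsp-12.2, hsp-43 and ctsa-1.2 held under every alternative run. These runs reuse the values by which all of these genes but ctsa-1.2 were named.

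Centring moved the median of the 9 means to −4.80 in the double mutant, −3.44 in lin-65 embryos and −1.78 in met-2, and the number at −1 or less in met-2 to 9. That number was 0 to 1 with a met-2 library left out. Of the 5 most alike genes 2 were shared with the centred ranking, 1 with that by distance and 3 with that by hsp-70 alone.

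Same-numbered libraries of different strains did not deviate together (Pearson's r across genes from −0.21 to 0.04), so the replicate block, which kept 2 calls, pairs numbers only. The spread of N2 and the depth, which limit all ratios to N2, are not in the values.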
